A study of Homo sapiens with 8 samples.

Results

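Lysosomal cathepsins are the proteases that break down protein inside the lysosome, the acidic degradative compartment of the cell. They are made as inactive precursors, sorted to the lysosome mostly by mannose 6-phosphate receptors and activated there at low pH by removal of their propeptides. In monocytes and macrophages they digest engulfed material, trim antigens and the invariant chain for MHC class II loading, and activate other proteases. The 9 genes described here are CTSA, CTSB, CTSC, CTSD, CTSH, CTSK, CTSL, CTSS and CTSZ, taken by gene symbol from the 60664 genes of the expression table. All 9 were listed and passed the filter on low values.

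RNA was sequenced from THP-1 cells, a human acute monocytic leukemia line labelled WT. Parental and DAC-resistant cells were each given either DMSO, the vehicle, or 1 µM DAC for 6 days, with 2 biological replicates in each of 4 groups and 8 libraries in all. DAC (decitabine) is a deoxycytidine analogue that traps DNA methyltransferases after its incorporation into DNA and so lowers DNA methylation. The DAC-resistant cells had been derived by the study from the same line through repeated exposure to DAC and kept off the drug before the experiment, and a number of clones was not given in the sources used here. Libraries held 27463330 to 31897547 reads on genes, as recovered from the deposited FPKM (reads scaled by exon length and by the library's total). The chi-square per gene between replicates was 3.90 to 4.18, above the 1 that sampling noise alone gives, and each pair was counted as 2 libraries. Whether the replicates were separate cultures is not stated beyond their label, and the p-values measure the spread between these libraries only.

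The cells matched their label, with all 10 of 10 genes of a monocytic leukemia marker list at 1 FPKM or more in some library. The summed level of that list was 283 and 294 FPKM in parental cells with DMSO, 365 and 375 FPKM in parental cells with DAC, 250 and 244 FPKM in DAC-resistant cells on DMSO and 251 and 236 FPKM in DAC-resistant cells with DAC. With DAC in parental cells, 8 of the 10 genes rose and 2 fell at an adjusted p under 0.05. The shares of all genes tested were 33.6% and 24.1%. CD33 was 1 of the 2 that fell (log2 -0.29), and it did not pass after upper-quartile scaling (limma adjusted p = 0.10). After that scaling 1 of the 10 fell, and after quantile normalization 7 rose. Without drug 7 were lower and 1 higher in DAC-resistant than in parental cells, where 26.2% of all genes were lower and 31.3% higher. CD14 and LYZ were picked from the list as checks and do not stand for all 10. CD14, a lipopolysaccharide co-receptor, was at 1.45 and 1.58 FPKM in parental cells with DMSO and at 19.0 and 20.8 FPKM with DAC, while LYZ, the secreted lysozyme, went from 11.4 and 12.6 to 46.7 and 48.9 FPKM. In DAC-resistant cells CD14 was at 0.750 and 0.989 FPKM with DMSO and at 0.837 and 1.37 FPKM with DAC, and LYZ at 3.69 and 4.88 FPKM with DMSO and 3.38 and 2.88 FPKM with DAC. The lower CD14 without drug did not pass after quantile normalization or with voom (adjusted p of 0.0504 and 0.060). CD68, a macrophage lysosomal protein, was low throughout (0.319 to 1.53 FPKM) and was tested only because of its parental DAC libraries, and 7 of the other 9 rose. Markers of T cells summed to at most 0.737 FPKM, erythroid markers to at most 3.08 FPKM with GYPB at 0 in all libraries, B and plasma cell markers to 7.81 to 11.9 FPKM, and fibroblast and epithelial markers to 0.754 to 9.21 FPKM, with the highest sum of this last list in parental cells with DAC. The part of these markers in the cathepsin results was not tested, and in bulk RNA fewer cells of a type and less RNA per cell cannot be told apart.

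DAC raised the RNA of all 9 cathepsins in parental cells, and CTSD rose most. The mean FPKM with DAC was 7.62 times that with DMSO for CTSD, 4.50 times for CTSK, 4.27 times for CTSA, 3.30 times for CTSL, 3.20 times for CTSH, 2.14 times for CTSB, 1.78 times for CTSZ, 1.76 times for CTSS and 1.40 times for CTSC. In limma's fit across 14899 genes, 6 of 9 were called higher and none lower, a call being a change of 2-fold or more with an unadjusted p no larger than 0.01, where 6.66% of all genes tested were called higher and 2.64% lower. All 9 passed at an adjusted p under 0.05, as did 33.6% of all genes upward and 24.1% downward. The median log2 fold change of the 9 was 1.25, against 0.06 over all genes tested. With parental DMSO replicate 1 left out, CTSB had a log2 fold change of 0.999, just under the fold required, and 5 were called.

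**Figure D1:**
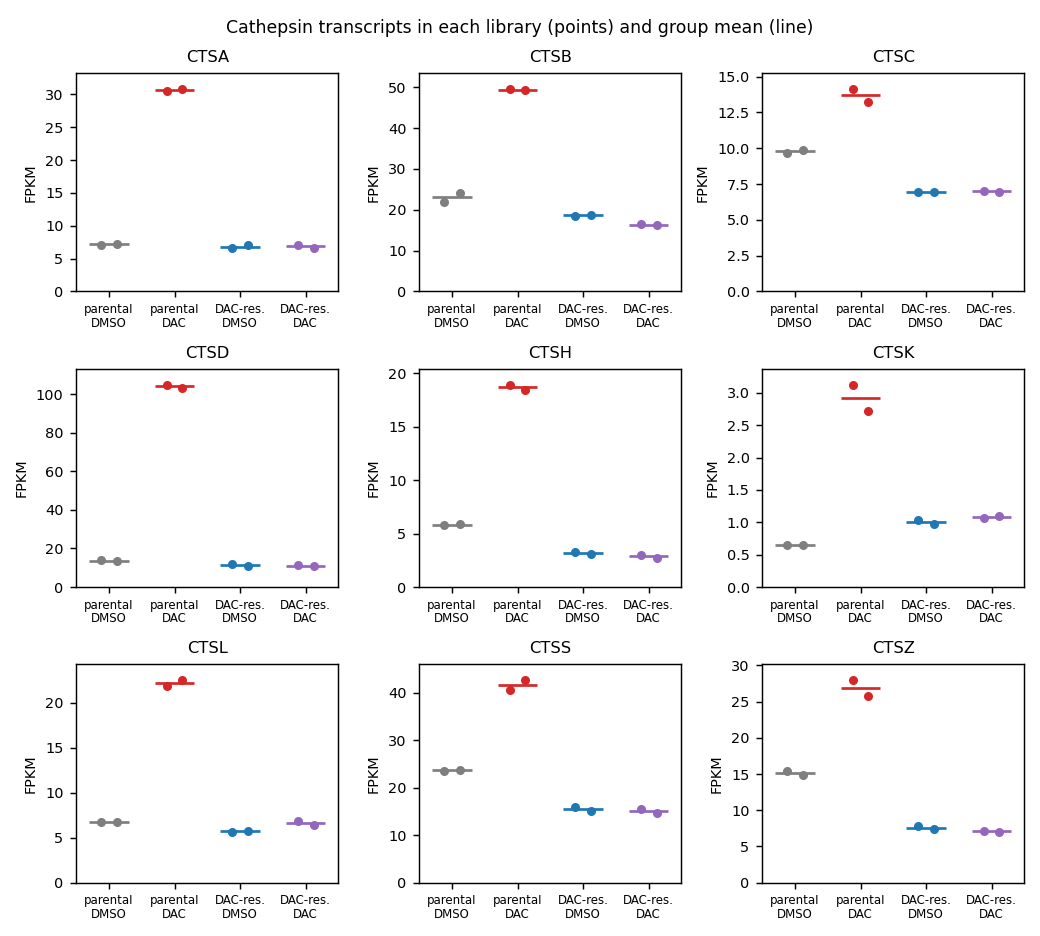
FPKM (y axis, from 0) of each cathepsin in the 2 libraries of each group (points) with the group mean (line). In every panel the parental libraries with DAC stand above the other 6, from CTSK at 3.12 and 2.72 FPKM to CTSD at 103 and 105 FPKM.

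CTSD is the aspartic protease of the lysosome, which cuts at acidic pH and activates other hydrolases. Its level was 13.9 and 13.4 FPKM in parental cells with DMSO and 105 and 103 FPKM with DAC, and 11.8 and 11.1 FPKM in DAC-resistant cells on DMSO and 11.6 and 10.7 FPKM with DAC. Only the parental libraries with DAC were high. DAC raised it by 2.84 ± 0.048 (log2, SE) in parental cells with an adjusted p of 1.3e-07, which placed it at rank 112 of 14899 genes by fold change.

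CTSA, or cathepsin A, is a serine carboxypeptidase that also protects beta-galactosidase and the neuraminidase NEU1 in a lysosomal complex. It was at 7.05 and 7.30 FPKM in parental cells with DMSO and at 30.5 and 30.8 FPKM with DAC, and at 6.69 and 7.01 FPKM in DAC-resistant cells on DMSO and 7.15 and 6.66 FPKM with DAC. The parental libraries with DAC lay far above all others, and the DAC-resistant libraries overlapped between treatments. The rise in parental cells was 1.95 ± 0.046 (log2, SE; limma adjusted p = 3.9e-07). NEU1, its partner, was 9.02 ± 0.32 FPKM (SD, n = 2) with DMSO and 32.4 ± 0.58 FPKM with DAC in parental cells.

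The cysteine endopeptidases CTSB, CTSL, CTSS and CTSK belong to the papain family. CTSB, an abundant enzyme with both endopeptidase and carboxypeptidase activity, was at 22.0 and 24.2 FPKM in parental cells with DMSO, 49.5 and 49.3 FPKM with DAC, 18.6 and 18.8 FPKM in DAC-resistant cells on DMSO and 16.6 and 16.2 FPKM with DAC. Its rise in parental cells was 1.07 ± 0.046 (log2, SE; adjusted p = 5.3e-06). The 4 groups did not overlap.

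CTSL, a broad endopeptidase of the lysosome, was at 6.76 and 6.70 FPKM in parental cells with DMSO and 21.9 and 22.5 FPKM with DAC. In DAC-resistant cells it was at 5.66 and 5.75 FPKM with DMSO and 6.90 and 6.43 FPKM with DAC, both above the DMSO libraries. It rose by 1.59 ± 0.045 (log2, SE; adjusted p = 8.6e-07) in parental cells.

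CTSS, the endopeptidase that removes the invariant chain in antigen-presenting cells, was at 23.6 and 23.7 FPKM in parental cells with DMSO, 40.6 and 42.6 FPKM with DAC, 16.0 and 15.1 FPKM in DAC-resistant cells on DMSO and 15.6 and 14.7 FPKM with DAC. The parental increase was 0.79 ± 0.044 (log2, SE; adjusted p = 1.5e-05), short of the fold needed for a call. Its neighbour on chromosome 1, CTSK, is the collagen-degrading cathepsin best known from osteoclasts and was the lowest of the 9. CTSK was at 0.653 and 0.644 FPKM in parental cells with DMSO, 3.12 and 2.72 FPKM with DAC, 1.03 and 0.981 FPKM in DAC-resistant cells on DMSO and 1.06 and 1.10 FPKM with DAC. These values rest on 165 to 725 reads per library, and CTSK passed the filter of at least 1 FPKM in at least 2 libraries without its parental DMSO libraries. The rise of 1.25 ± 0.087 (log2, SE; adjusted p = 4.1e-05) was on the scale of log2(FPKM + 1), which understates changes of low genes.

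CTSC, CTSH and CTSZ are exopeptidases of the same family. CTSC, or dipeptidyl peptidase I, which activates the serine proteases of neutrophil and lymphocyte granules, was at 9.65 and 9.89 FPKM in parental cells with DMSO, 14.1 and 13.3 FPKM with DAC, 6.92 and 6.94 FPKM in DAC-resistant cells on DMSO and 7.03 and 6.97 FPKM with DAC. It showed the smallest rise of the 9, by 0.45 ± 0.043 (log2, SE; adjusted p = 0.00018). CTSH, an aminopeptidase, was at 5.83 and 5.85 FPKM in parental cells with DMSO, 18.9 and 18.4 FPKM with DAC, 3.30 and 3.07 FPKM in DAC-resistant cells on DMSO and 3.0 and 2.74 FPKM with DAC. It rose by 1.52 ± 0.055 (log2, SE; adjusted p = 2.4e-06). CTSZ, or cathepsin X, a carboxypeptidase, was at 15.4 and 14.8 FPKM in parental cells with DMSO, 27.9 and 25.7 FPKM with DAC, 7.78 and 7.41 FPKM in DAC-resistant cells on DMSO and 7.16 and 6.97 FPKM with DAC. Its rise was 0.79 ± 0.051 (log2, SE; adjusted p = 3.0e-05).

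In hg38 with the GENCODE 44 annotation, CTSK (chr1:150794880-150809577) and CTSS (chr1:150730079-150765957) lie side by side on the minus strand of chromosome 1. CTSD (chr11:1752752-1764573) and CTSC (chr11:88265069-88359684) are far apart on chromosome 11, and CTSA (chr20:45890144-45898949) and CTSZ (chr20:58985686-59008238) on chromosome 20. CTSH lies at chr15:78921058-78949574 and CTSL at chr9:87724051-87731469, while the position of CTSB is not printed here. The FPKM counts reads over all annotated exons, UTRs included. CTSZ shares 6136 exon bases with NELFCD on the other strand, CTSA shares 959 with NEURL2 and 329 with PLTP on the other strand, and CTSD shares 1304 with an unnamed protein-coding gene on its own strand and 1331 with PRADX on the other. The authors' strand setting is not given in the sources used here, so reads from these stretches cannot be assigned to either gene with certainty. The listed FPKM was 0.196 to 0.404 for NELFCD, 0.0534 to 0.387 for NEURL2, 2.11 to 7.68 for PLTP and 0 to 0.488 for PRADX. The unnamed gene on CTSD's strand was at 0.354 and 0.446 FPKM in parental cells with DMSO and 1.14 and 0.848 FPKM with DAC. In DAC-resistant cells it was at 0.0543 to 0.267 FPKM.

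The upstream regions of CTSD and CTSA are printed to show where they carry the E-box letters CACGTG. CTSD and CTSA had the largest rises among the 6 members with a RefSeq promoter (GRCh38.p14). That of CTSC, which had the smallest rise of the 9, is printed beside them and carries none. The regions of CTSL and CTSH, with log2 rises of 1.59 and 1.52, carry none either and are not printed. The E-box is the core of the motif bound by TFEB and TFE3, the transcription factors of lysosomal genes. Each printed region is the 250 bases before the annotated start, 5′ to 3′ on the gene's own strand, with any E-box letters in capitals. The printed regions lie at chr11:1763928-1764177 (minus strand) for CTSD, chr20:45891085-45891334 (plus strand) for CTSA and chr11:88337737-88337986 (minus strand) for CTSC.
CTSD: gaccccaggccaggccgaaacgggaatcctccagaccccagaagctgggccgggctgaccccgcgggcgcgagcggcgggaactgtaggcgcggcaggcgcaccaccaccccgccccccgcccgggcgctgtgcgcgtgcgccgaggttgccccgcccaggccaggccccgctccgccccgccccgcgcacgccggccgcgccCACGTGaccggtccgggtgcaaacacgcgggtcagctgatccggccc
CTSA: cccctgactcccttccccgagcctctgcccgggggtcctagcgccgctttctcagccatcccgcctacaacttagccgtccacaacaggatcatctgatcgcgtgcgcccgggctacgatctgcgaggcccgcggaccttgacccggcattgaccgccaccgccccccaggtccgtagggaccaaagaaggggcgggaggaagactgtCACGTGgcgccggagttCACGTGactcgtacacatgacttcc
CTSC: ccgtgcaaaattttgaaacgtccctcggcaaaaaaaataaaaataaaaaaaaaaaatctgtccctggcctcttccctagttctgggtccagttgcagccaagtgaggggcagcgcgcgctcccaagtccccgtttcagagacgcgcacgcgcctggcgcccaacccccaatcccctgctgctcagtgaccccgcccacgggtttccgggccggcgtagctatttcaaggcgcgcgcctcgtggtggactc

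In windows of 300 bases (250 before and 50 after the start), CACGTG occurred at -47 in CTSD and at -42 and -25 in CTSA, counted from the start, and not in CTSC, CTSH, CTSL or CTSZ. Of 35116 promoters of that length, 7.26% held it. The longer form named the CLEAR element, which contains the E-box, was searched only as an exact string of 10 letters. That string was in none of the 6 members and in 0.353% of all promoters. Forms that differ from it in any letter were not counted, so whether CTSD or CTSA holds a variant of the element was not tested. The interferon-stimulated response element core and the letters TTCNNNGAA of the STAT element, searched on both strands like the others, were also in none of the 6 (3.57% and 7.66% of all promoters). GGGCGG, the GC box bound by SP1, was in all 6 and in 45.0% of all promoters. The 6 windows held 25 to 43 CpG, the dinucleotide that DNA methyltransferases modify, with CTSD at the top and CTSC at the bottom, where the median of all promoters was 14. CTSB, CTSK and CTSS had no entry.

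In DAC-resistant cells the same treatment left the 9 cathepsins near their DMSO level. None was called in either direction, where 0.235% of all genes tested were, and the median log2 fold change was -0.03, against 0.01 over all genes. By limma, 2 of the 9 had an unadjusted p under 0.05, and voom called none. The share of all genes at that unadjusted threshold was not taken, here or below, so such counts are description only. CTSL alone passed at an adjusted p under 0.05 (5.88% of all genes passed upward), with a rise of 0.19 (95% interval 0.08 to 0.30, limma adjusted p = 0.042). That pass was lost when any of the 8 libraries was left out, at adjusted p from 0.072 to 0.17, and the cause was not tested. CTSB, at -0.18 (interval -0.29 to -0.07), missed the threshold with an adjusted p of 0.055, but passed with either parental DMSO library left out (adjusted p = 0.026). After quantile normalization CTSL had an adjusted p of 0.054 and CTSB passed in its place, while both passed after upper-quartile scaling and with voom. For the others the log2 fold change and its 95% interval were 0.01 (-0.10 to 0.12) for CTSA, 0.01 (-0.09 to 0.11) for CTSC, -0.04 (-0.15 to 0.08) for CTSD, -0.11 (-0.24 to 0.02) for CTSH, 0.05 (-0.15 to 0.26) for CTSK, -0.03 (-0.14 to 0.07) for CTSS and -0.09 (-0.21 to 0.03) for CTSZ. These intervals leave room for small changes but none reaches the 2-fold size of a call.

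**Figure D2:**
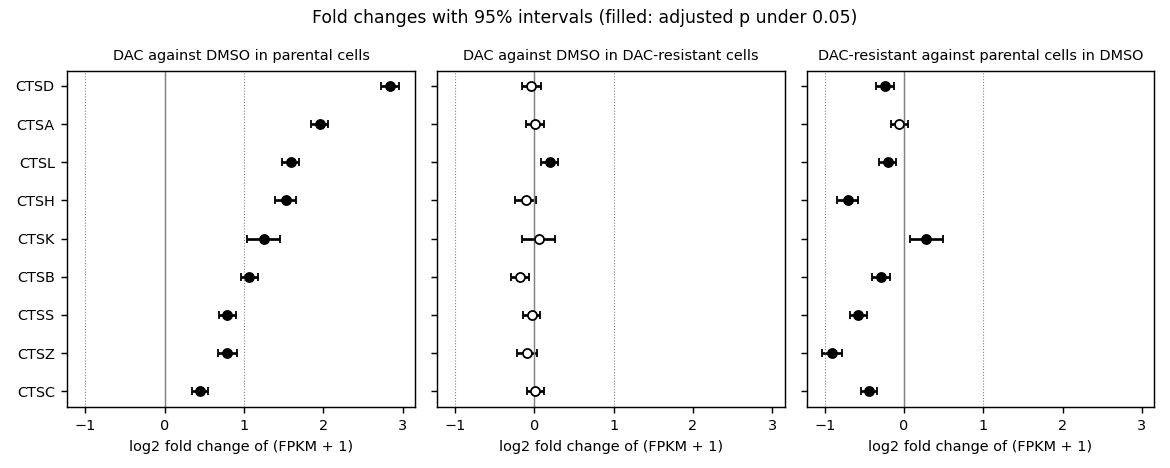
Log2 fold change of FPKM + 1 (x axis) of each cathepsin with its 95% interval in 3 comparisons, filled where the adjusted p was under 0.05, with dotted lines at a 2-fold change. DAC in parental cells gave 0.45 to 2.84, DAC in DAC-resistant cells -0.18 to 0.19.

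The interaction of cell line and DAC, taken from the same fit, was negative for all 9 at an adjusted p under 0.05, where 28.4% of all genes passed in that direction, and 6 of 9 were called lower, as were 7.16% of all genes. It was -2.88 ± 0.069 (log2, SE; adjusted p = 1.0e-06) for CTSD and -0.43 ± 0.060 (adjusted p = 0.0014) for CTSC, the largest and the smallest in size. Under DAC itself, DAC-resistant cells held 10.7% of the parental level of CTSD, 15.4% of CTSH, 22.5% of CTSA, 26.3% of CTSZ, 30.0% of CTSL, 33.1% of CTSB, 36.4% of CTSS, 37.0% of CTSK and 51.2% of CTSC. In that comparison 7 of 9 were called lower, as were 9.17% of all genes tested, and all 9 passed at an adjusted p under 0.05 (35.1% of all genes passed downward). These comparisons share the parental DAC libraries with that of DAC in parental cells.

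Without the drug, 7 of the 9 were lower in DAC-resistant than in parental cells, and CTSK was higher. None reached a call, as 8.73% of all genes tested did, but 7 passed downward at an adjusted p under 0.05 and 1 upward, where 26.2% and 31.3% of all genes did. An unadjusted p under 0.05 was reached by 8 in the limma fit, with no share of all genes taken at that threshold, and voom called none. CTSZ was lowest relative to parental cells, at 50.3% of their level (log2 -0.91 ± 0.051, SE; adjusted p = 1.7e-05), followed by CTSH at 54.5% (-0.71; adjusted p = 6.7e-05), CTSS at 65.6% (-0.58; adjusted p = 6.1e-05) and CTSC at 71.0% (-0.44; adjusted p = 0.00019). Smaller falls were found for CTSB, at 80.9%, CTSD, at 83.7%, and CTSL, at 84.8% of the parental level (adjusted p of 0.0019, 0.0056 and 0.0075). CTSA, at 95.4%, differed by -0.06 (interval -0.17 to 0.05; adjusted p = 0.31). CTSK was at 155% of the parental level (0.28; adjusted p = 0.029), and this was lost when any of its 4 libraries was left out (adjusted p = 0.078 to 0.11) and with no filter on low values (adjusted p = 0.058). The order of members by this difference was not that by the DAC effect: CTSD, which rose most under DAC, was among the least changed, and CTSZ and CTSS, with small rises under DAC, were among the most changed.

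The 9 genes together summed to 104.8 and 106.5 FPKM in parental cells with DMSO, 311.4 and 308.7 FPKM with DAC, 77.8 and 76.1 FPKM in DAC-resistant cells on DMSO and 76.0 and 72.5 FPKM with DAC. CTSD supplied 13.3% and 12.6% of the sum in parental cells with DMSO and 33.7% and 33.5% with DAC, and 14.6% to 15.2% in the DAC-resistant libraries. These shares depend on gene length, and per kilobase of canonical transcript CTSD made up 20.8% of the 9 genes' summed mean level in DAC-treated parental cells, 6.67% without drug, and 8.34% to 8.37% in the resistant line. The sum made up 0.0353% and 0.0361% of all gene FPKM in parental cells with DMSO and 0.103% in each parental DAC library, and 0.0262% to 0.0276% in the 4 DAC-resistant libraries.

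**Figure D3:**
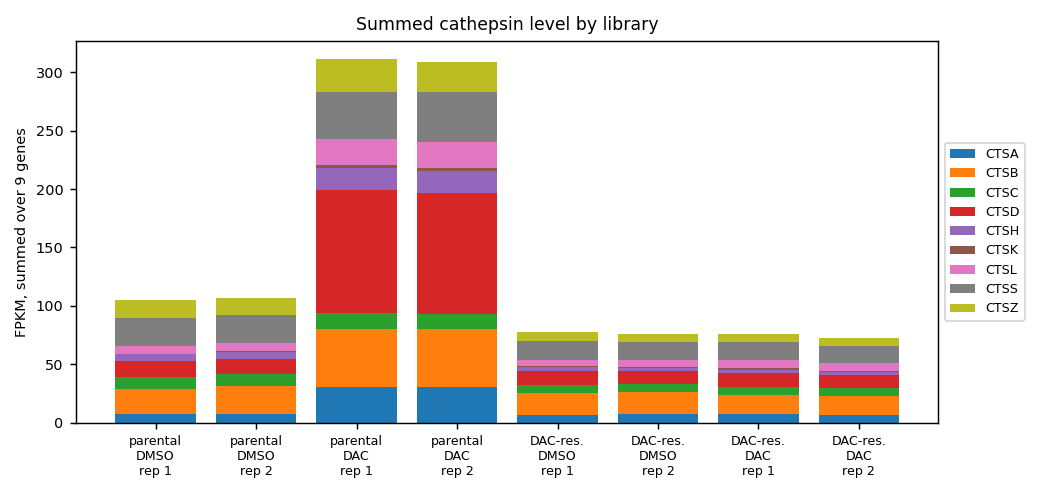
Stacked FPKM of the 9 cathepsins (y axis, from 0) in each of the 8 libraries. The parental DAC bars reach 311.4 and 308.7 FPKM, with CTSD the tallest segment, and the 4 DAC-resistant bars lie between 72.5 and 77.8 FPKM.

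By FPKM, CTSS and CTSB were the highest in parental cells with DMSO and overlapped each other, followed by CTSZ, CTSD, CTSC, CTSA, CTSL, CTSH and CTSK, all separate from their neighbour. With DAC the order was CTSD, CTSB, CTSS, CTSA, CTSZ, CTSL, CTSH, CTSC and CTSK, with no overlap between neighbours. In DAC-resistant cells it was CTSB, CTSS, CTSD and CTSZ under both treatments, then CTSC, CTSA, CTSL, CTSH and CTSK, and CTSC overlapped CTSA with DMSO while CTSZ, CTSC, CTSA and CTSL formed a chain of overlapping neighbours with DAC. The order depends on gene length, since the deposited FPKM used the union of all exons. For CTSC that union is 24849 bases, 13.3 times its canonical transcript of 1870 bases, and for CTSZ 19384 bases, 12.9 times, but for CTSS 6888 bases, 1.75 times. Per kilobase of canonical transcript, parental cells with DMSO were led by CTSZ and CTSC instead, with levels on the FPKM scale of 195 and 130, and CTSB came next with 65.2. With DAC, CTSZ at 346 stood above CTSD at 289 and CTSC at 182 on that scale, and in DAC-resistant cells CTSZ and CTSC were the highest under both treatments. CTSK was the lowest by either length in all 4 groups.

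Cathepsins outside the 9 changed in both directions. Of 7 others, 4 were high enough to be tested. CTSO rose with DAC in parental cells by 1.34 (log2; adjusted p = 0.00010). CTSW, a cathepsin of cytotoxic lymphocytes, was at 0.906 and 0.492 FPKM there with DMSO and at 3.22 and 3.88 FPKM with DAC, and it passed the filter of 1 FPKM in 2 libraries only through those DAC libraries, so no test is given. CTSG, the serine protease of azurophil granules, fell from 103 and 108 FPKM to 52.8 and 50.01 FPKM (-1.02; adjusted p = 4.6e-06). It was at 283 and 272 FPKM in DAC-resistant cells with DMSO and at 296 and 281 FPKM with DAC, so it was higher in resistant than in parental cells without drug by 1.39 (adjusted p = 1.7e-06). CTSV, close to CTSL in sequence, passed the filter only through the parental DMSO libraries, where it was at 1.15 and 1.46 FPKM, beside 0.680 and 0.854 FPKM in DAC-treated parental cells and at most 0.171 FPKM in the resistant line. None of the 4 passed with DAC in DAC-resistant cells by limma or voom, and 0 had an unadjusted p under 0.05.

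The cathepsin inhibitors split in direction. Of 6 tested, 3 rose and 3 fell with DAC in parental cells, where 33.6% of all genes rose and 24.1% fell, against 3 and 2 after upper-quartile scaling and 2 and 3 after quantile normalization, where SPOCK1 was lost (adjusted p = 0.071). CST7, or cystatin F, an inhibitor directed to the endolysosome, went from 5.63 and 6.48 FPKM to 45.5 and 41.7 FPKM (log2 2.66 ± 0.074, SE; adjusted p = 8.0e-07). CSTB, the cytosolic cystatin B, went from 14.5 and 15.3 to 35.7 and 36.4 FPKM (1.22; adjusted p = 9.8e-07). CSTA, the cytosolic cystatin A, fell from 126 and 135 to 56.8 and 56.6 FPKM (-1.19; adjusted p = 1.1e-06). SERPINB6, a serpin that blocks CTSG, fell by 0.77 (adjusted p = 7.4e-05). In DAC-resistant cells CST7 and SERPINB6 rose with DAC by 0.47 and 0.43 (adjusted p of 0.013 and 0.0093). CSTA was at 112 and 111 FPKM with DMSO and at 122 and 124 FPKM with DAC there, and both DAC libraries lay above both DMSO libraries. Its log2 fold change of 0.14 missed the threshold (adjusted p = 0.056), as it did after quantile normalization, but passed rescaled to TPM, after upper-quartile scaling and with voom. Without drug, 2 of the 6 were higher and 3 lower in DAC-resistant cells, with a median of -0.16. Of all genes tested, 31.3% were higher and 26.2% lower there, with a median of 0.02. After quantile normalization, upper-quartile scaling or with voom, 4 of the 6 were lower. CSTB (0.58; adjusted p = 2.4e-05) and CST7 (0.54; adjusted p = 0.00091) were higher, and SPOCK1 (-0.57; adjusted p = 0.0028), SERPINB6 (-0.29; adjusted p = 0.0061) and CSTA (-0.23; adjusted p = 0.0019) lower.

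**Figure D4:**
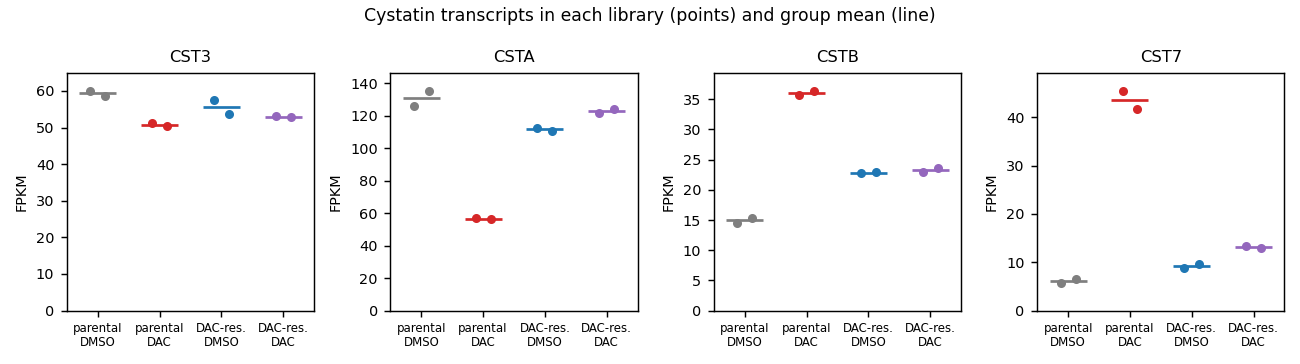
FPKM (y axis, from 0) of 4 cystatins in the 2 libraries of each group (points) with the group mean (line). CST7 and CSTB are highest in parental cells with DAC, at 41.7 to 45.5 and 35.7 to 36.4 FPKM, where CSTA is lowest.

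Among 18 genes that mature or sort cathepsins, 12 rose and 4 fell with DAC in parental cells (33.6% and 24.1% of all genes), with a median log2 fold change of 0.37 against 0.06 over all genes. After upper-quartile scaling 2 fell and after quantile normalization 6 fell, beside 12 that rose in each. Without SORT1 and LGMN, which passed the filter only through the parental DAC libraries, 10 of 16 rose (median 0.29). SORT1, a sorting receptor, went from 0.328 and 0.390 to 3.94 and 3.71 FPKM, given with no test for that reason. GNPTAB, which makes the mannose 6-phosphate tag, went from 4.73 and 4.78 to 11.9 FPKM in both libraries (1.16; adjusted p = 7.0e-06). SORL1, a sorting receptor of the same family, fell by 0.77, and VPS29, of the retromer, by 0.42 (adjusted p of 0.00041 and 0.00014). Without drug, DAC-resistant cells had less SORL1 (0.305 and 0.386 against 3.44 and 3.30 FPKM; -1.70, adjusted p = 1.2e-05) and less PSAP, the saposin precursor (-0.53; adjusted p = 9.4e-06), and more VPS26A (1.0; adjusted p = 6.3e-06). In DAC-resistant cells 2 genes of this list rose with DAC and 3 fell (1 and 3 after quantile normalization, 2 and 5 with voom), where 5.88% of all genes rose and 5.35% fell, the largest change being that of VPS29 at 0.30.

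Most other lysosomal genes tested rose as well with DAC in parental cells, with list medians of 0.30 to 0.51 beside 1.25 for the 9 cathepsins and 0.06 for all genes, of which 33.6% rose and 24.1% fell. Of 39 other hydrolases tested, 28 rose and 8 fell with DAC in parental cells (5 fell after upper-quartile scaling), and the median was 0.41. Called higher were 8, and none lower (1 lower after quantile normalization). ACP5 is among the 8 but was tested only because of its parental DAC libraries, so its call carries no weight. Of all genes tested, 6.66% were called higher and 2.64% lower. Without ACP5 and IDS, which passed the filter only through the parental DAC libraries, 26 of 37 rose (median 0.35). ACP5, tartrate-resistant acid phosphatase, was at 0.0108 and 0.0227 FPKM with DMSO and at 3.07 and 3.69 FPKM with DAC. NEU1 rose by 1.74 (adjusted p = 2.5e-06), while AGA, which cleaves the link between sugar and asparagine, fell by 0.89 and CPQ, a carboxypeptidase, by 0.74. Of 17 membrane proteins 13 rose and 1 fell (none fell after upper-quartile scaling and 2 did after quantile normalization or with voom; median 0.30), led by the channel MCOLN1 at 0.94 and by LAPTM4A at 0.90. CD68, 1 of the 13, passed the filter only through parental DAC. None of the 17 was called by limma, where 6.66% of all genes were called higher and 2.64% lower. An unadjusted p under 0.05 was reached by 16, with no share of all genes taken at that threshold. Voom called 2 of them, and 2218 of all 14899 genes. After upper-quartile scaling, which moved the median of all genes by 0.15, 4 were called. Of 15 V-ATPase subunits, the proton pump that acidifies the lysosome, 13 rose and 1 fell (none after upper-quartile scaling; median 0.51), led by ATP6V0C at 0.83 and ATP6V0E1 at 0.77. Of TFEB, TFE3, MITF and TFEC, the MiT family regulators of lysosomal genes, TFE3 passed, with a rise of 0.62 (adjusted p = 0.00026), as the 1 of 4 in limma's fit where upper-quartile scaling and voom each gave 2. TFE3 was at 12.5 and 13.6 FPKM with DMSO and 21.0 and 20.3 FPKM with DAC, and at no more than 14.3 FPKM in DAC-resistant cells.

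**Figure D5:**
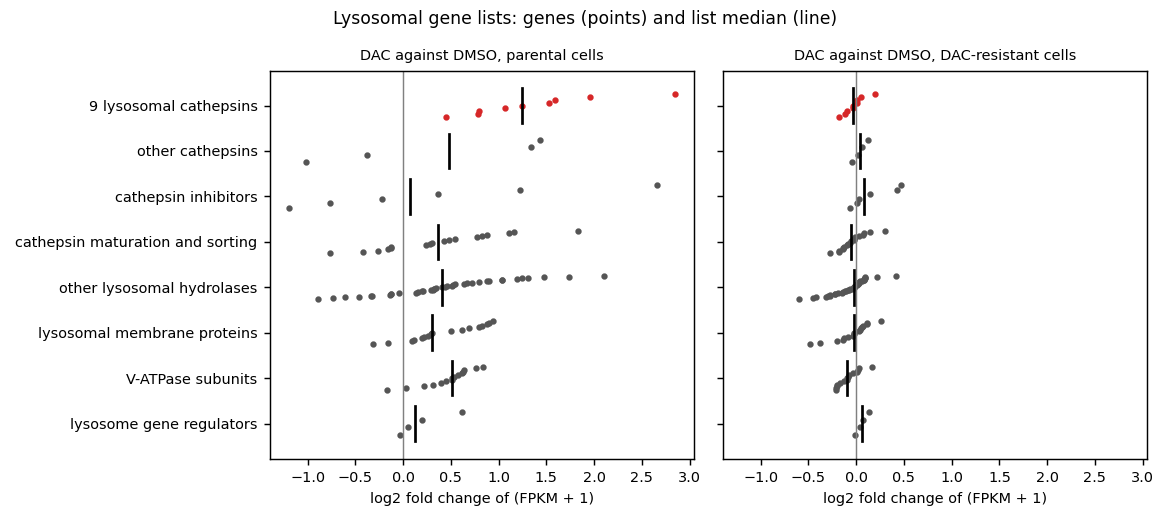
Log2 fold change of FPKM + 1 with DAC (x axis) of each gene (points) with the list median (line), in parental cells at left and in DAC-resistant cells at right. The 9 lysosomal cathepsins have a median of 1.25 at left and -0.03 at right.

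In DAC-resistant cells 1 hydrolase rose with DAC and 10 fell, of 39 tested, where 5.88% of all genes rose and 5.35% fell. NEU1 fell by 0.60 (adjusted p = 0.0036), from 14.2 and 14.4 to 9.79 and 8.49 FPKM, FUCA1 fell by 0.45 (adjusted p = 0.022), and AGA rose by 0.42 (adjusted p = 0.042, or 0.051 after quantile normalization). Of the membrane proteins MCOLN1 passed in limma's fit, with a fall of 0.38. TMEM106B also passed, upward, when rescaled to TPM, after upper-quartile scaling and with voom, and NPC2 passed downward with voom. Of the V-ATPase subunits 1 rose and 2 fell (3 after quantile normalization or with voom). Without drug, DAC-resistant cells had 22 hydrolases lower and 9 higher than parental cells (median -0.15), against 15 and 10 when rescaled to TPM (median -0.083) and 26 and 7 after upper-quartile scaling (median -0.28). Of all genes 26.2% were lower and 31.3% higher. CPVL, a carboxypeptidase of macrophages, was at 5.73 and 5.31 FPKM in parental cells and at 0 and 0.00997 FPKM in DAC-resistant cells (-2.70; adjusted p = 2.4e-06). Of 17 membrane proteins 4 were higher and 9 lower without drug (median -0.12), against 4 and 6 when rescaled to TPM (median -0.049). LAMP2, a main glycoprotein of the lysosomal membrane, was higher in DAC-resistant cells, at 104 and 107 against 35.9 and 34.2 FPKM (1.56; adjusted p = 5.4e-07), in contrast to LAPTM5 (-0.68) and SCARB2 (-0.59). Of 15 V-ATPase subunits 7 were higher and 3 lower in DAC-resistant cells without drug (median 0.15), but 6 and 5 after upper-quartile scaling (median 0.0041) and 10 and 3 when rescaled to TPM (median 0.22).

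The genes whose level over the 8 libraries was most like that of each cathepsin were MX1 and TNFRSF4 for CTSA, MIR9-3HG and MGAT1 for CTSB, LINC01451 and ATG7 for CTSC, ERVH48-1 and CD93 for CTSD, HS6ST1 and CCL2 for CTSH, SERPING1 and CMYA5 for CTSK, MMP14 and SLFN13 for CTSL, SIGLEC6 and PTPN7 for CTSS and ST3GAL6 and CEACAM6 for CTSZ. The Pearson correlation of log2(FPKM + 1) was 0.995 to 0.9998 in these pairs. The 8 points are 2 libraries from each of 4 groups, so these values are given as a description with no test. Among the 9 cathepsins themselves the lowest correlation was 0.668, between CTSK and CTSZ, which differed in the direction of their change in DAC-resistant cells without drug.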

How the data were processed

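RNA-seq libraries of parental and DAC-resistant THP-1 cells with DMSO or DAC were analysed from the expression table. The authors trimmed reads with Cutadapt 1.9.1, aligned them to hg38 with HISAT2 2.1.0, counted them with HTSeq 0.13.5 on Ensembl GRCh38 genes, and deposited FPKM values multiplied by 1000. Each of the 8 columns matched its sample by name. Deposited FPKM were divided by 1000, and the reads behind them were recovered with exon lengths of GENCODE 44 for 34894 genes and by ratios between libraries for 4698, within 0.01 reads of a whole number. They came to 99.9% of the authors' scaling totals and served as depth and for 1 alternative, while the 1264 repeat families were not used here.

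Log2(FPKM + 1) was fitted in R 4.3.3 by limma 3.58.1, with 4 group means and a mean-variance trend, for genes that reached 1 FPKM in 2 or more libraries (residual df 4, prior df 2.50), and p-values were adjusted over all 14899 genes by Benjamini-Hochberg. Called genes changed 2-fold or more with an unadjusted p no larger than 0.01, the thresholds of the study's volcano plots. "Rose" and "fell" mark an adjusted p under 0.05. With 2 libraries against 2, an exact two-sided permutation test cannot go below p = 0.333, so none was used. The scripts were tested on simulated data.

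Members and lists were chosen with earlier results of these data known. All 9 members are described. Of each other list and comparison, up to 2 genes with the largest rise and 2 with the largest fall were eligible to be named, at an adjusted p under 0.05 and with no overlap between groups. CD14, LYZ, CD68, GYPB and the levels of overlapping genes are named as checks, and other genes outside the rule were named after their values were seen. The 2 genes most like each member were taken by Pearson correlation. Alternatives were a pseudocount of 0.1, no filter, a mean of at least 5 FPKM, TPM, quantile and upper-quartile scaling, a replicate block, only the libraries compared, calls at an adjusted p under 0.05, voom on the recovered reads, and each library left out in turn.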

Additional observations from a re-analysis of the deposited data

Results flagged for a closer look

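The DAC effect differed between DAC-resistant and parental cells for all 9 cathepsins, by the interaction term of the limma fit at an adjusted p under 0.05. The difference (DAC-resistant minus parental, log2) was -2.88 for CTSD, -1.94 for CTSA, -1.64 for CTSH, -1.39 for CTSL, -1.25 for CTSB, -1.19 for CTSK, -0.88 for CTSZ, -0.82 for CTSS and -0.43 for CTSC. The groups have 2 libraries each, so no library was compared with the rest of its group.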

How the results depend on the processing

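Over the alternatives, the members' changes with DAC in parental cells, between the cell lines under DAC, and between the 2 DAC effects kept their direction and an adjusted p under 0.05 in every fit that could be made. CTSK was not tested under a mean of at least 5 FPKM. With DAC in DAC-resistant cells, where no change was called, the sign of 3 members turned: CTSA to -0.019 without resistant DMSO replicate 1 and -0.034 without resistant DAC replicate 1, CTSD to 0.0050 without resistant DMSO replicate 1 and 0.014 without resistant DAC replicate 2, and CTSS to 0.0065 and 0.0040 without the same libraries. With each library left out in turn these ranged up to 0.054 for CTSA and down to -0.090 for CTSD and -0.072 for CTSS. Rescaled to TPM, CTSA without drug was 0.0026. The members passing with DAC in DAC-resistant cells numbered 1, against 0 with no filter, with the replicate block or with only the libraries compared, 2 with a mean of at least 5 FPKM, upper-quartile scaling or voom, and 0 to 1 when a library was left out. Upper-quartile scaling gave 1 call (CTSZ) without drug, where there was none, and an adjusted p of 0.0092 for CTSA and 0.081 for CTSK, which with no filter had 0.058. Members called lower between the cell lines under DAC numbered 7, against 9 after upper-quartile scaling and 8 with voom, and for the difference of the DAC effects 6, against 8 after upper-quartile scaling. That scaling also moved the median of all genes down, by -0.26 under DAC and -0.15 for the difference. Under DAC it left 16.4% of all calls higher, against 36.6%, so the added member calls are not particular to the 9.

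Genes called with DAC in parental cells numbered 1387, against 2097 with a pseudocount of 0.1, 573 with a mean of at least 5 FPKM and 2218 with voom. In DAC-resistant cells they numbered 35, against 107, 6 and 55, and 37 to 53 when a library was left out. Between the cell lines they numbered 1300 without drug, against 2263, 517 and 2376, and 2154 under DAC, against 3249, 908 and 3360, and for the difference of the DAC effects 1583, against 721 with a mean of at least 5 FPKM. Upper-quartile scaling moved the median of all genes by 0.15 with DAC in parental cells, -0.11 between the lines without drug, -0.26 under DAC and -0.15 for the difference, and quantile normalization by -0.11 in parental cells and 0.10 for the difference. The share of calls that were higher with DAC in parental cells was 71.6%, against 57.9% with a mean of at least 5 FPKM, 59.2% after quantile normalization and 83.5% after upper-quartile scaling. In DAC-resistant cells it was 48.6%, against 66.7% with that mean, 67.3% with voom and 64.7% without resistant DAC replicate 2. Between the cell lines it was 51.0% without drug, against 39.8% after upper-quartile scaling, and 36.6% under DAC, against 50.9% with that mean, 46.7% after quantile normalization and 16.4% after upper-quartile scaling. For the difference it was 32.6%, against 45.6%, 42.8% and 20.8% in the same order. The causes were not tested. Same-numbered replicates did not deviate together (correlations -0.022 to 0.020), and the replicate block changed no other call of a member.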
